A study of Rattus norvegicus with 15 samples.

Results

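The response of the posterior cerebral artery to sham surgery was followed to 3 days by setting 3 arrays of sham-operated rats against 3 arrays of intact rats, which are 6 of the 15 arrays of the study. Arrays were chosen by their labels alone, and 15866 probe sets remained after the array's controls were left out, of which 15737 were bright enough to test and gave 10360 genes with a single probe set each. The sham arrays held arteries of Sprague Dawley rats, 7 weeks old and 300 to 350 g, taken 3 days after an operation in which tissue and muscle were opened to expose the vertebral arteries on both sides and the common carotid on the left, while the vessels were left untouched. These rats had isoflurane anaesthesia at 2 to 4% and the opioid buprenorphine, 0.1 mg/kg during surgery and 0.05 mg/kg in repeated doses over the following 2 days. A further 3 sham arrays, from rats killed 24 h after the same operation, served as an earlier time. The intact rats were of the same strain, age and weight range, and their protocol names no operation, anaesthetic or analgesic, so surgery, anaesthesia and analgesia cannot be told apart. In every group each array held RNA pooled from 8 rats, whose arteries were dissected after perfusion with latex and papaverine, a smooth muscle relaxant. The labels speak of repeated hybridisation, so p-values measure the spread between these arrays, which may be partly technical.

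Sham surgery is the control for an operation that closes the arteries leading to the brain, and an intact rat is the control for the surgery itself. An incision in muscle sets off a systemic acute phase response, in which interleukin-6 acts through the transcription factor STAT3, and a local one in which leukocytes enter tissue and fibroblasts lay down matrix. A cerebral artery consists of an endothelium, contractile smooth muscle and an outer coat of fibroblasts and macrophages, and at the base of the brain it lies on nervous tissue and close to the choroid plexus.

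Every array had a mean of 5000 after trimming, and medians of the 9 arrays used here lay between 2559.4 and 2934.9. Acta2, smooth muscle actin, was bright throughout, at 34190, 73660 and 57510 on the sham arrays at 3 d and at 31350, 60380 and 52630 on the intact arrays. Not every gene of the vessel wall was bright, as the endothelial Pecam1 stood at 1055, 1759 and 1506 on the intact arrays. The treatment text of sham array 1 of 3 d describes the vessel occlusion, whereas its title and source name sham surgery. Counts past the threshold, list medians that moved by over 1.5 times without it and most such named genes are given both ways. Counts of genes without overlap are mostly given with it only. In its absence, the sham arrays lay wholly above the intact arrays for 1541 of 10360 genes and wholly below them for 931. The intact arrays carry the array numbers 13, 14 and 15 and the sham arrays of 3 d the numbers 3, 7 and 10. The intact arrays thus carry the last numbers of the 15, and no label says whether the numbers follow the order of processing. If they do, array order and surgery cannot be told apart. Intact array 3 differed from the other intact arrays in neuronal signal. Its mean over 47 neuronal genes, on the log2 scale relative to all 15 arrays, was -0.04, against 1.20 and 0.86 on intact arrays 1 and 2. The sham arrays of 3 d were at -0.48, -0.03 and -0.46, so intact arrays 1 and 2 were those outside the sham range. Over all probe sets tested, intact array 3 correlated with intact arrays 1 and 2 at 0.925 and 0.917, and these with each other at 0.928. Sham array 3 of 3 d and intact array 2 were rich in choroid plexus markers, with list means of 2.10 and 2.29 and with Ttr, the thyroid hormone carrier made by that tissue, at 261000 and 282200.

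The main question was what remains of the response to surgery after 3 days. Matrix, endothelial and erythroid genes had higher signals in sham-operated than in intact arteries, with list medians of 0.43, 0.41 and 0.67 on the log2 scale. Neuronal genes had lower ones, with a median of -1.04. Respiratory chain genes were slightly lower at -0.14, or -0.02 with array number in the model. No single gene passed the test. None of the 15737 probe sets passed at a limma adjusted p under 0.05, that is 0% of those tested, and the smallest adjusted p was 0.118. An unadjusted p under 0.05 was reached by 2236 probe sets, or 14.2%, of which 1362 were higher and 874 lower after sham surgery. Counted over genes, the 3 sham arrays lay wholly above the 3 intact arrays for 896 (8.65%) and wholly below them for 590 (5.69%). Of the genes without overlap, 184 were higher and 129 lower by more than 1 on the log2 scale. The median log2 difference of all genes was 0.06, and 5881 of the 10360 were higher. Without sham array 1 the count past the threshold was again 0. With array number in the model it was 0 too, and 1531 probe sets had an unadjusted p under 0.05. Without intact array 3 it became 184, with 89 higher and 95 lower and a smallest adjusted p of 0.0117.

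**Figure D1:**
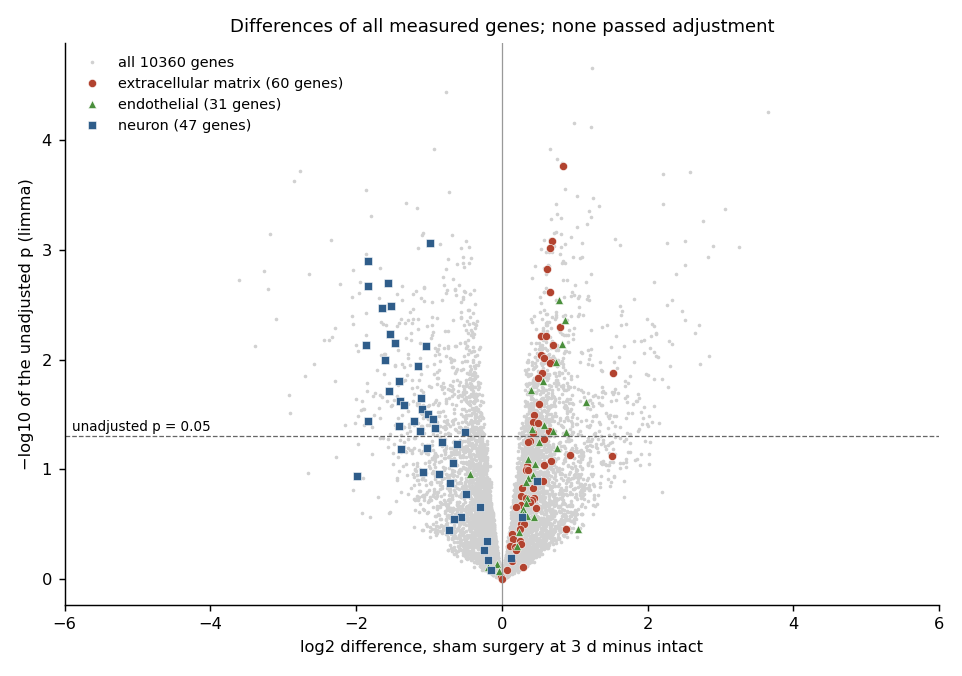
Log2 difference of each of 10360 genes (x axis, sham surgery at 3 d minus intact) against the negative log10 of its unadjusted limma p (y axis), with genes of 3 lists in colour. Matrix and endothelial genes sit mostly to the right, with list medians of 0.43 and 0.41, and neuronal genes mostly to the left, with a median of -1.04.

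Genes with higher signals after sham surgery were led by F13a1, the A chain of clotting factor XIII, which cross-links fibrin and is made by resident macrophages. F13a1 stood at 9035, 7741 and 6182 on the sham arrays of 3 d and at 3022, 3739 and 2945 on the intact arrays (log2 difference 1.23, SE 0.20, adjusted p = 0.118). Every sham array was above every intact one, and a second F13a1 probe set differed by 1.28. At 24 h the sham arrays read 5216, 5024 and 5949, which placed them above the intact arrays too. Stat3, the transcription factor that carries the interleukin-6 signal, stood at 10120, 10520 and 13930 after sham surgery and at 5438, 6027 and 3544 in intact arteries (log2 1.22, SE 0.23, adjusted p = 0.118). The lowest sham array was well above the highest intact one, but the other Stat3 probe set differed by only 0.29. Clca1, a secreted protein known from mucus-producing epithelia, had the largest difference of the 12 higher genes, with 1406, 1176 and 1980 after sham surgery and 77, 150 and 94 in intact arteries (log2 3.65, SE 0.66, adjusted p = 0.118). Its intact signals lay at the dim end of the array, so the size of this difference depends on the value of 16 added before the logarithm.

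Further genes of this kind have roles in growth, adhesion and oxygen sensing. Igf1, the growth factor that mediates growth hormone action, stood at 19760, 18220 and 17350 on the sham arrays of 3 d, against 9849, 9450 and 13860 on the intact arrays (log2 0.76, SE 0.15, adjusted p = 0.118). Epas1, the hypoxia-inducible factor typical of endothelium, stood at 6804, 8038 and 8371 after sham surgery and at 3438, 3516 and 3802 in intact arteries (log2 1.10, SE 0.22, adjusted p = 0.118). A brighter Epas1 probe set differed by 0.33. Dag1, which encodes the laminin receptor dystroglycan, stood at 8599, 8996 and 9257 after sham surgery, against 4628, 5222 and 4294 (log2 0.93, SE 0.15, adjusted p = 0.118), and its other probe sets differed by 0.35 and 0.97. On the probe sets named here the groups were fully apart, and the sham arrays lay closer to one another than to any intact array. Tns1, which links integrins to actin, was more scattered, with 6127, 12460 and 11470 after sham surgery and 3730, 3552 and 3313 in intact arteries (log2 1.44, and 1.76 without sham array 1). A brighter Tns1 probe set differed by 0.30 with an unadjusted p = 0.303. The G protein subunit Gnai2 (0.99), the aminopeptidase Anpep (0.65), the membrane trafficking gene Pdcd6ip (0.83), Tmem42 (1.60) and the Golgi protein Acbd3 (1.09) completed the 12 higher genes, each with an adjusted p = 0.118. A brighter Tmem42 probe set differed by 0.21 and the other Acbd3 probe set by -0.01.

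Several of the genes with lower signals after sham surgery are known for high expression in neurons. Nsf, the ATPase that recycles the membrane fusion machinery of synapses, stood at 3377, 5716 and 4146 on the sham arrays of 3 d and at 23750, 21500 and 8905 on the intact arrays (log2 -1.94, SE 0.39, adjusted p = 0.118). Intact array 3 was the lowest of the intact arrays, yet above every sham array, and both other Nsf probe sets were lower too, by -0.91 and -1.07. Serpini1, the neuronal serpin, stood at 728, 1861 and 1489 after sham surgery, against 9695, 9546 and 2829 in intact arteries (SE of the log2 difference 0.51, adjusted p = 0.136). Madd, a regulator of synaptic vesicle release, stood at 2830, 2700 and 4115 after sham surgery and at 11030, 9360 and 4758 in intact arteries (log2 -1.32, SE 0.29, adjusted p = 0.136). Both repeat the pattern of Nsf, with intact array 3 between the other intact arrays and the sham arrays. Ywhah, a 14-3-3 protein abundant in brain, stood at 42000, 37360 and 32290 after sham surgery, against 71580, 79870 and 61410 (log2 -0.93, SE 0.18, adjusted p = 0.118).

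Not every lower gene had that pattern over the intact arrays. Jund, a member of the AP-1 family, stood at 165, 503 and 176 after sham surgery and at 1833, 1388 and 2571 in intact arteries, with intact array 3 the highest (log2 -2.85, SE 0.59, adjusted p = 0.123). A second Jund probe set differed by 0.06, so the direction rests on a single probe set. Nufip1, an RNA-binding protein, was likewise highest on intact array 3, with 4208, 4513 and 3766 after sham surgery against 6032, 6761 and 7916 (log2 -0.72, adjusted p = 0.134), and its other probe set differed by 0.01. The peroxisome biogenesis gene Pex6 did repeat the pattern of Nsf, at 231, 231 and 228 after sham surgery, against 3022, 2120 and 707 (log2 -2.77, adjusted p = 0.118). The other lower genes were the mitochondrial Timm29 (-0.77), the elongation factor Tcea2 (-1.87), Anp32a (-1.16), the ribosome assembly factor Rrs1 (-1.80) and the non-coding Oip5-as1 (-1.08), with adjusted p between 0.118 and 0.143. Among these, intact array 3 was the lowest intact array for all but Anp32a.

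**Figure D2:**
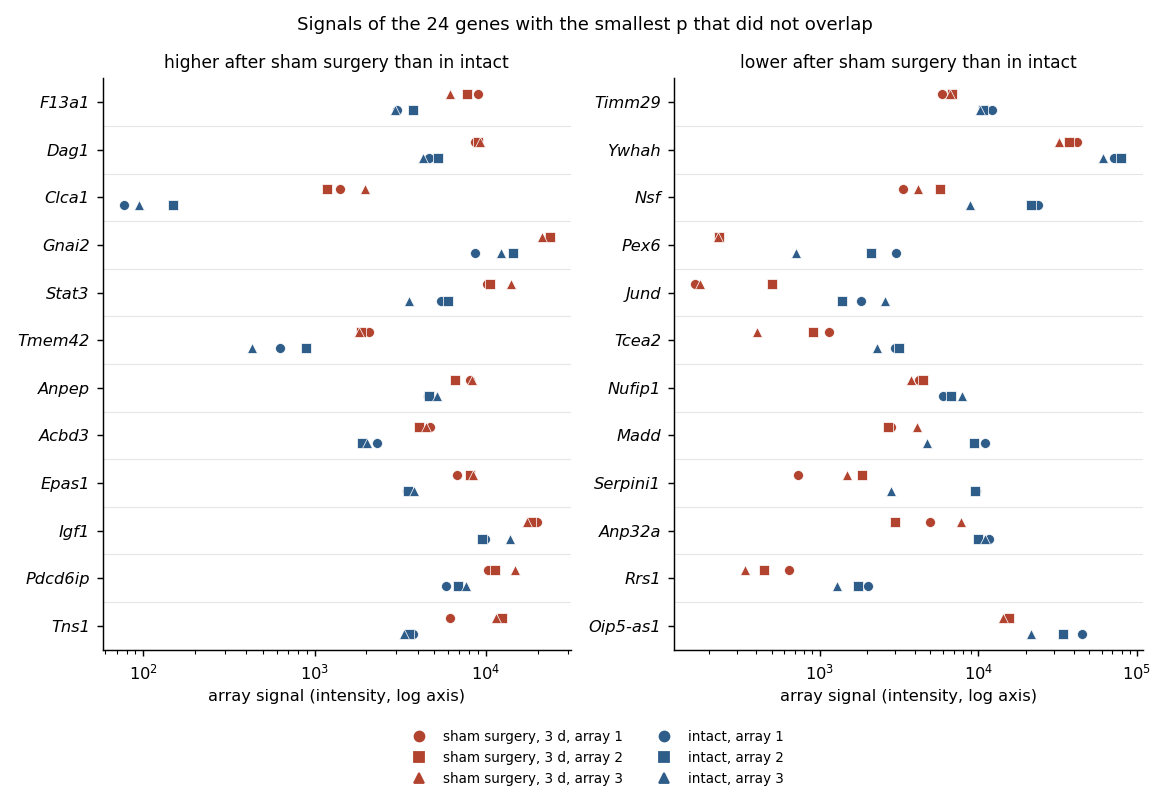
Signals on the 3 sham arrays of 3 d (red) and the 3 intact arrays (blue) for the 12 higher and 12 lower genes with the smallest unadjusted p among those without overlap (log axis, array signal), each symbol standing for 1 array. Clca1 lies at 1176 to 1980 on the sham arrays and at 77 to 150 on the intact arrays, and Nsf, Serpini1 and Madd have intact array 3 nearest to the sham arrays.

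Of these 24 genes, 7 are given by a probe set that was not the brightest of its gene. In all, 14 had other probe sets on the array, and for 11 of the 14 all others pointed the same way. Without intact array 3, 17 of the 24 passed, 9 higher and 8 lower, where 184 of all 15737 probe sets did. The 24 were chosen by their p and lack of overlap on these same arrays, so this count is no separate test of them. In that setting 142 of the 184 probe sets past the threshold were annotated to a single gene, and the signal of intact array 3 itself lay within the range of the sham arrays for 46 of them.

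Extracellular matrix genes, most of them products of fibroblasts and smooth muscle, had higher signals after sham surgery for 59 of the 60 measured, and their median log2 difference was 0.43 beside 0.06 for all genes. None passed, and 13 (21.7%) had sham arrays wholly above the intact arrays, where 8.65% of all genes did. Col1a1, a chain of the main fibrillar collagen, stood at 67130, 63300 and 76280 on the sham arrays and at 33130, 40680 and 42360 on the intact arrays (fold 1.78, SE of the log2 difference 0.17, adjusted p = 0.118). Col3a1, its partner in pliable tissue, stood at 89490, 65310 and 65380 after sham surgery, against 38870, 40710 and 57380 (log2 0.69, SE 0.17, adjusted p = 0.143). Both collagens were apart in all 6 arrays, with intact array 3 the highest of the intact ones.

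Other matrix genes without overlap were components of the basement membrane and of microfibrils. They included Col4a1 (0.57), the perlecan gene Hspg2 (0.67), the collagen-binding Sparc (0.53), the microfibril collagen Col6a3 (0.66) and fibulin, Fbln2 (0.62). Fbn1, which encodes fibrillin, stood at 8772, 8086 and 7798 on the sham arrays, against 4474, 6083 and 7102 on the intact arrays (log2 0.50). The small proteoglycan Fmod was the member that was not higher (-0.01). The list mean per array was 0.21, 0.05 and 0.07 after sham surgery and -0.58, -0.43 and -0.06 in intact arteries, so the groups did not overlap but intact array 3 was close to the sham arrays. The median was 0.42 without sham array 1 and 0.57 without intact array 3, where 4 matrix genes passed on at least 1 of their probe sets. On the brightest probe set of each gene 3 of the 60 passed in that setting, beside 110 of all 10360 genes. Intact arrays 1 and 2, which had the lowest matrix means, were also the arrays with the most neuronal signal, whose part in the result was not tested. In bulk RNA, fewer cells of a type and less RNA per cell cannot be told apart, for this list and for those that follow.

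Genes of matrix turnover differed less evenly. Of 41 proteases and inhibitors 31 were higher, with a median of 0.25, 4 (9.76%) wholly above the intact arrays, near the 8.65% of all genes, and 1 wholly below. The median was 0.09 without intact array 1 and 0.43 without intact array 3. Mmp14, a membrane-bound collagenase, stood at 21020, 26280 and 21480 after sham surgery and at 15650, 16880 and 11270 in intact arteries (log2 0.66). The collagenase Mmp13 stood at 675, 562 and 853, against 91, 493 and 349 (log2 1.38, adjusted p = 0.249). Timp1, a secreted inhibitor of metalloproteinases, stood at 15920, 17320 and 16330 after sham surgery, within the intact range of 8328 to 18020 (log2 0.39, adjusted p = 0.494). The cysteine protease inhibitor Cst6 (-1.92) and the serine protease Htra1 (-0.46, and -0.30 without sham array 1) overlapped between groups.

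Endothelial genes were higher in 27 of 31 cases, with a median of 0.41. None passed, 11 (35.5%) lay wholly above the intact arrays, beside 8.65% of all genes, and 1 (3.23%) wholly below, beside 5.69%. Vwf, which tethers platelets to an injured wall, stood at 28630, 27280 and 27480 on the sham arrays and at 10820, 18580 and 22650 on the intact arrays (SE of the log2 difference 0.26, adjusted p = 0.231). The sham arrays were nearly equal, whereas the intact arrays were widely spread. Tie1, a receptor of the angiopoietin pathway, stood at 6868, 6313 and 4861 after sham surgery, against 2863, 3163 and 3835 (log2 0.86, SE 0.26, adjusted p = 0.198). Lyve1, a hyaluronan receptor of lymphatic endothelium that perivascular macrophages also carry, stood at 3837, 3574 and 4706, against 2294, 2141 and 2583 (log2 0.78, adjusted p = 0.175).

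Nos3, the nitric oxide synthase of endothelium, stood at 3075, 5093 and 3009 after sham surgery and at 1041, 1549 and 2612 in intact arteries (log2 1.15, SE 0.46, adjusted p = 0.287). The junction protein Pecam1 overlapped, with 1684, 4876 and 2154, against 1055, 1759 and 1506 (log2 0.88, adjusted p = 0.344). The sphingosine phosphate receptor S1pr1 was the endothelial gene wholly below the intact arrays, at 13350, 15000 and 10990, against 22730, 15250 and 15710. The endothelial list mean was 0.18, 0.09 and 0.15 on the sham arrays and -0.48, -0.44 and 0.00 on the intact arrays. Its median was 0.39 without sham array 1 and 0.63 without intact array 3.

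Genes that set vascular tone were higher in 33 of 45 cases (median 0.23), with 9 (20%) wholly above the intact arrays, beside 8.65% of all genes, and 0 below. Pde5a, the phosphodiesterase that ends cyclic GMP signals in smooth muscle, stood at 3311, 3254 and 4156 after sham surgery, against 2272, 1797 and 2408. The purine receptor P2rx1, which contracts arteries, stood at 1790, 3973 and 1850, against 1325, 1459 and 1379 (log2 0.76). The angiotensin receptor Agtr1b was higher by 1.32 and the signalling brake Rgs16 by 0.53, both without overlap. Rgs4, a relative of Rgs16, was lower by 0.54 with overlapping arrays.

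Growth factor genes were higher in 31 of 46 cases (median 0.23), with 9 (19.6%) wholly above the intact arrays, beside 8.65% of all genes, and 2 (4.35%) wholly below. The median was 0.36 without intact array 3. Fgf7, the keratinocyte growth factor made by fibroblasts in wounds, stood at 1570, 703 and 1299 after sham surgery and at 111, 346 and 314 in intact arteries (log2 2.21, SE 0.45, adjusted p = 0.118). Fgf2, the basic fibroblast growth factor, stood at 1509, 1710 and 1762, against 1109, 596 and 761 (log2 1.04, adjusted p = 0.27). Fgf1 stood at 3371, 2350 and 2246, against 1327, 1003 and 1765, and the platelet-derived growth factor Pdgfa at 6331, 6706 and 6185, against 3360, 5695 and 5291 (log2 0.46). None of these 4 genes overlapped between the groups. Without sham array 1, 16 of the 46 (34.8%) were wholly above the intact arrays, where 14.9% of all genes were.

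Contractile smooth muscle genes were higher in 24 of 26 cases with a median of 0.24, but only Vcl and Itga8 (7.69%) had no overlap, beside 8.65% of all genes. This count was 6 (23.1%) without sham array 1, beside 14.9% of all genes. Vcl, which anchors actin at the membrane, stood at 21180, 32650 and 18350 after sham surgery and at 10500, 14130 and 11840 in intact arteries (log2 0.95, adjusted p = 0.143). The smooth muscle myosin Myh11 overlapped (log2 0.37, adjusted p = 0.553, and 0.55 without sham array 1), as did Acta2 (0.18, adjusted p = 0.83), for which sham array 1 was the lowest of the sham arrays and the difference without it was 0.49. The list mean was -0.20, 0.55 and 0.19 on the sham arrays and -0.55, -0.07 and 0.31 on the intact arrays, so the spread within each group exceeded the difference between them. The median was 0.42 without sham array 1, 0.05 without sham array 2, 0.52 without intact array 3 and -0.02 without intact array 1. It was 0.59 once array number entered the model. Pericyte markers had a median of 0.46 (11 of 12 higher) and 0.25 without intact array 1, with Notch3, a receptor of mural cells, higher by 0.64 with overlap. Leptomeningeal fibroblast markers had a median of 0.36 (23 of 25 higher) and 0.59 without intact array 3, with the retinal dehydrogenase Aldh1a1 at 19030, 11730 and 11090, against 6802, 6375 and 9244. Wholly above the intact arrays lay 1 of the pericyte markers (8.33%) and 2 of the leptomeningeal markers (8%), near the 8.65% of all genes. These counts were 3 (25%) and 2 (8%) without sham array 1, beside 14.9% of all genes.

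**Figure D3:**
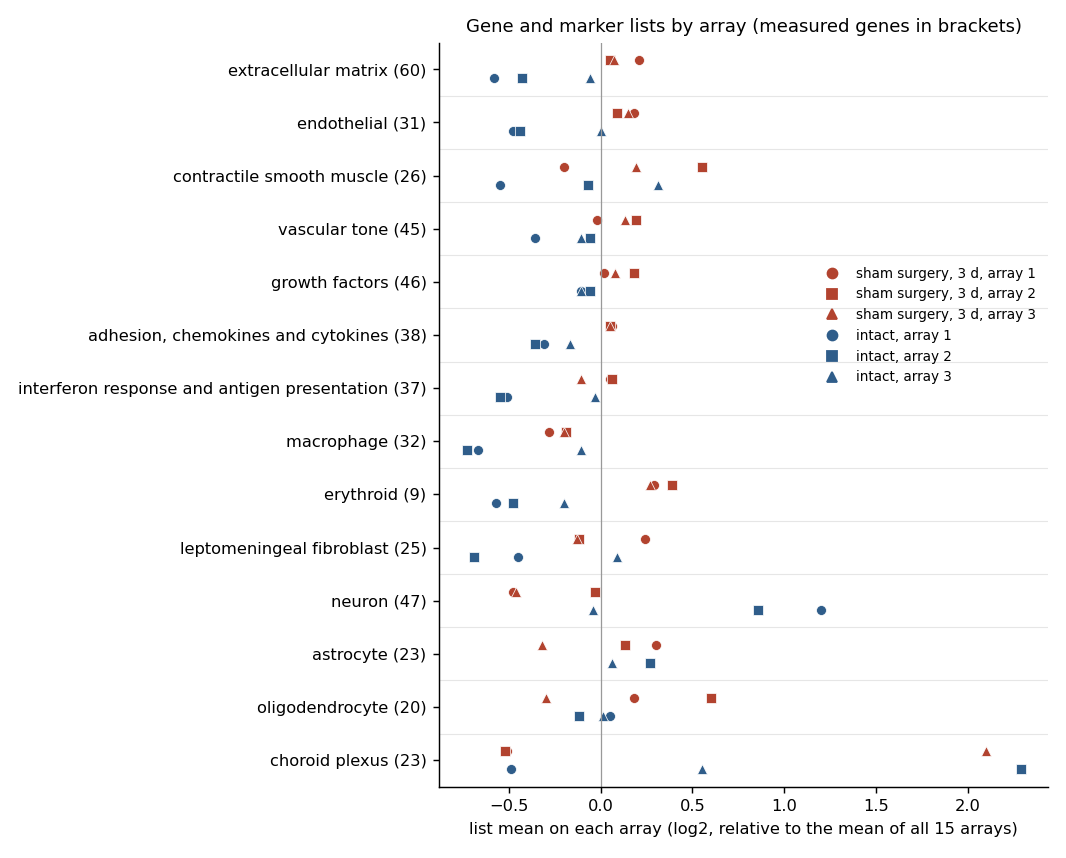
Mean over the genes of each list on each of the 3 sham arrays of 3 d (red) and 3 intact arrays (blue), in log2 units relative to the mean of all 15 arrays, with the number of measured genes in brackets. Matrix and endothelial lists are fully apart. The neuron list has intact arrays 1 and 2 at 1.20 and 0.86 but intact array 3 within the sham range. Choroid plexus markers are high on sham array 3 and intact array 2.

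Immediate early and flow-responsive genes were mixed: 21 of 29 were higher (median 0.21), 5 (17.2%) lay wholly above the intact arrays, beside 8.65% of all genes, and 2 (6.9%) wholly below, near the 5.69% of all genes. Ccn1, a matrix signalling protein induced by stretch, stood at 2730, 1497 and 1998 after sham surgery and at 551, 210 and 639 in intact arteries (log2 2.21, SE 0.49, adjusted p = 0.136). Ier3, a stress-induced survival factor, stood at 32480, 34960 and 31460, against 14290, 17840 and 23510 (log2 0.86, adjusted p = 0.134). Zfp36, which destabilises cytokine messages, was higher by 0.68 without overlap, whereas the flow-induced Klf2 overlapped at 21590, 22000 and 13290, against 9343, 8510 and 16260. The rapid response genes Fos (-0.61, adjusted p = 0.594) and Egr1 (-0.08, adjusted p = 0.919) overlapped, and were at -1.12 and -0.21 without sham array 1. The median of the list was 0.01 without sham array 1, 0.05 without intact array 1 and 0.33 without intact array 3.

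Adhesion molecules, chemokines and cytokines were higher in 31 of 38 cases (median 0.30), with 6 (15.8%) wholly above the intact arrays, beside 8.65% of all genes, and 0 below. Cxcl10, an interferon-induced chemokine for T cells, stood at 3531, 2644 and 3140 after sham surgery and at 1321, 1606 and 2114 in intact arteries (log2 0.90, SE 0.24, adjusted p = 0.168). Il1b, the fever cytokine interleukin-1 beta, stood at 3051, 2412 and 2124, against 1079, 1409 and 2094. Cxcl1, which draws in neutrophils, stood at 424, 152 and 1507, against 83, 55 and 49 (log2 2.65). The sham arrays were above the intact ones for all 3, but Il1b came within a small margin and Cxcl1 was dim in intact arteries. Il6, interleukin-6 itself, stood at 192, 522 and 1076, against 184, 107 and 70 (log2 1.95), and the hyaluronan receptor Cd44 at 2817, 3934 and 2989, against 1986, 1385 and 2168 (log2 0.82). The monocyte chemokine Ccl2 overlapped, at 1472, 807 and 244, against 496, 286 and 502 (log2 0.66, adjusted p = 0.636), and its difference was 0.10 without sham array 1.

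Acute phase genes were higher in 21 of 25 cases (median 0.38), with Stat3, its inhibitor Socs3, the fibrinogen chain Fgb and Lcn2 (16%) wholly above the intact arrays, beside 8.65% of all genes. Socs3 stood at 1746, 1921 and 2478 after sham surgery, against 1454, 1325 and 1226 (log2 0.60, adjusted p = 0.272). Lcn2, an iron-sequestering protein, stood at 2520, 2858 and 2138, against 1660, 1397 and 1597 (log2 0.68, SE 0.38, adjusted p = 0.425). Its difference was -0.16 with array number in the model. The proteins that the liver releases in an acute phase were less even. Lbp, which binds bacterial lipopolysaccharide, stood at 11070, 6199 and 3939, against 3132, 2362 and 5142 (log2 0.94, adjusted p = 0.286, and 0.55 without sham array 1). A2m, a broad protease inhibitor, stood at 17710, 8100 and 15750, against 8778, 8933 and 10210 (log2 0.50, and 0.28 without sham array 1). The ferroxidase Cp was higher by 0.51 and the metallothionein Mt2A lower by 0.21, both with overlap, and they differed by 0.22 and -0.36 without sham array 1. The complement component C3 stood at 6398, 8348 and 8675 after sham surgery, against 7402, 6612 and 9404, with a log2 difference of 0.00 and a 95% interval of -0.45 to 0.45, and a difference of 0.14 without sham array 1. The list median was 0.28 without sham array 1, 0.11 without intact array 2 and 0.52 without intact array 3.

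Interferon response and antigen presentation genes were higher in 35 of 37 cases (median 0.36), with 6 (16.2%) wholly above the intact arrays, beside 8.65% of all genes. Without intact array 3 this became 25 (67.6%), beside 19.2% of all genes, and without intact array 2 the median was 0.24. Irf1, an activator of this response, stood at 7038, 7203 and 8722 after sham surgery and at 4641, 5592 and 6571 in intact arteries (log2 0.46, adjusted p = 0.228). The peptide transporter Tap1 (0.88) and the antiviral membrane protein Ifitm3 (0.72) overlapped, as intact array 3 reached the sham range of both.

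Blood cell markers were also mostly higher. Of 32 macrophage markers 25 were higher (median 0.24), with 6 (18.8%) wholly above the intact arrays, beside 8.65% of all genes, among them Lyve1, the RNA editing enzyme Apobec1 at 1378, 1327 and 2070, against 863, 543 and 1220, and the actin bundler Lcp1 (0.38). Coro1a, an actin regulator of leukocytes, was wholly below, at 5153, 5391 and 5326 after sham surgery, against 8555, 5902 and 8222. The lysosomal marker Cd68 did not separate the groups, at 4832, 3197 and 4529, against 3435, 3496 and 6357 (log2 -0.04, adjusted p = 0.95, and -0.16 without sham array 1). The macrophage list mean was -0.28, -0.19 and -0.20 on the sham arrays and -0.67, -0.73 and -0.11 on the intact arrays, so that intact array 3 was the highest of the 6. Without intact array 3 the median was 0.44 and 20 of the 32 (62.5%) lay wholly above, beside 19.2% of all genes, whereas the median was 0.15 without intact array 2 and 0.12 without the choroid-rich arrays. Neutrophil markers had a median of 0.60 (10 of 11 higher), with S100a9, a calcium-binding alarm protein, at 5412, 20480 and 5276, against 4612, 3832 and 7860, and a list median of 0.26 without sham array 2. Lymphocyte markers had a median of 0.35 (14 of 18 higher), which was 0.18 without the choroid-rich arrays, with the killer cell protease Gzmb higher by 2.09. Wholly above the intact arrays lay 1 of the neutrophil markers (9.09%) and 2 of the lymphocyte markers (11.1%), near the 8.65% of all genes. These counts were 4 (36.4%) and 4 (22.2%) without sham array 1, beside 14.9% of all genes. Platelet markers (4 genes, median 0.36) were at 0.14 without sham array 1 and at -0.08 without intact array 3.

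Erythroid markers were higher in 9 of 9 cases (median 0.67), with 3 (33.3%) wholly above the intact arrays, beside 8.65% of all genes. Hba-a3, a globin, stood at 40150, 53640 and 43480 after sham surgery, against 32510, 31510 and 35620 (log2 0.45). Slc4a1, the anion exchanger of red cells, stood at 2594, 3305 and 3650, against 1683, 2528 and 1599 (log2 0.73). Alas2, the first enzyme of haem synthesis in red cells, touched the intact range, at 20640, 21400 and 16310, against 10530, 9617 and 16770 (log2 0.69, adjusted p = 0.225). The globin Hbb overlapped as well (log2 0.34, adjusted p = 0.494, and 0.20 without sham array 1). The list mean was 0.29, 0.39 and 0.27 on the sham arrays and -0.57, -0.48 and -0.20 on the intact arrays, and its median was 0.59 without sham array 1 and 0.44 without sham array 2.

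Glucocorticoid-induced genes, which respond to the stress hormone, were higher in 18 of 27 cases (median 0.16), and 3 (11.1%) had no overlap, near the 8.65% of all genes. The median was 0.08 without sham array 1, 0.04 without intact array 2 and 0.34 without intact array 3. Fkbp5, a chaperone of the glucocorticoid receptor, stood at 8005, 8072 and 9497 after sham surgery, against 6380, 5268 and 8197 (log2 0.38, adjusted p = 0.427). Klf15, a metabolic transcription factor, stood at 6248, 6333 and 8812, against 5484, 4591 and 5887 (log2 0.41). Tsc22d3 (0.23) and the NF-kappaB inhibitor Nfkbia (0.65) overlapped. Circadian clock genes had a median of 0.12 (14 of 20 higher), which was 0.23 without sham array 1 and 0.04 without sham array 2, with the repressor Nr1d1 higher by 0.72, the output factor Dbp by 0.50 and Per3 by 1.70, and with the activator Bmal1 lower by 0.36. Dbp differed by 0.79 without sham array 1. Per1 differed between the sham arrays themselves, at 805, 4046 and 1037, against 2934, 3207 and 2575 (log2 -0.94, adjusted p = 0.511, and -0.49 without sham array 1). Of 40 cell cycle genes 28 had higher signals (median 0.18, and 0.03 with quantile normalization). The proliferation marker Mki67 stood at 861, 578 and 261, against 264, 105 and 127, with a slight overlap of dim signals (log2 1.63, adjusted p = 0.199).

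Genes of energy metabolism ran the other way in larger part. Of 46 respiratory chain genes 36 were lower, with a median of -0.14, and 12 (26.1%) lay wholly below the intact arrays, where 5.69% of all genes did. The median was -0.02 with array number in the model and -0.21 without the choroid-rich arrays. The list mean was -0.01, -0.10 and 0.10 on the sham arrays and 0.14, 0.06 and 0.15 on the intact arrays, with overlap. Ndufa8, a subunit of complex I, stood at 19130, 18100 and 18110 after sham surgery and at 25220, 23520 and 24780 in intact arteries (log2 -0.41). Uqcrc1, of complex III, stood at 27610, 22920 and 27270, against 32370, 31900 and 30210 (log2 -0.28). For these 2 subunits intact array 3 was close to the other intact arrays. Cox5a was wholly above (0.73). Of 34 hypoxia and glycolysis genes 21 were lower (median -0.08, -0.13 without sham array 1 and -0.02 without intact array 2), and 6 (17.6%) lay wholly below the intact arrays, beside 5.69% of all genes. Pgam1, a glycolytic mutase, stood at 44860, 48310 and 43290, against 68800, 63190 and 54150 (log2 -0.44), while the hormone Epo was higher at 664, 786 and 718, against 230, 132 and 121 (log2 2.11). Chaperone genes had a median of -0.09, which was -0.05 without sham array 1 and 0.01 without intact array 3, with Hsph1 at 12100, 9731 and 11890, against 15230, 17730 and 14880 (log2 -0.51) and the co-chaperone Dnajb5 lower by 1.87.

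Neuronal markers had the largest list difference of the 32 lists in either direction, with 44 of 47 lower after sham surgery and a median of -1.04. None passed, and 18 (38.3%) lay wholly below the intact arrays, beside 5.69% of all genes, or 33 (70.2%) beside 13.2% without intact array 3. Snap25, a vesicle fusion protein of synapses, stood at 22920, 27730 and 21630 after sham surgery and at 124800, 69580 and 37830 in intact arteries (log2 -1.53, SE 0.44, adjusted p = 0.184). Stmn3, a microtubule regulator of neurons, stood at 6844, 8032 and 3423, against 31190, 22900 and 12010 (log2 -1.83, adjusted p = 0.149). Eno2, the neuronal form of the glycolytic enolase and a member of the glycolysis list too, stood at 11570, 18160 and 13120, against 37050, 29060 and 20070 (log2 -0.99, adjusted p = 0.143). In all 3 genes the intact arrays fell in the same order, with intact array 3 lowest and nearest to the sham arrays.

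The summed signal of the 47 neuronal genes was 304205, 391105 and 295347 on the sham arrays and 1014596, 762613 and 413538 on the intact arrays, and none of the defining markers was at 0. The list mean was -0.48, -0.03 and -0.46 on the sham arrays and 1.20, 0.86 and -0.04 on the intact arrays. On this measure the groups overlapped, as intact array 3 lay below sham array 2. The median was -0.95 without sham array 1 and -1.40 without intact array 3, where 7 neuronal genes passed as lower on at least 1 probe set. On the brightest probe set of each gene 5 of the 47 passed in that setting, beside 110 of all 10360 genes. Intact arrays 1 and 2 had the highest neuronal sums and the lowest matrix, endothelial and erythroid means of the 6 arrays. The part of neuronal RNA in those results and in the lower metabolic genes was not tested. Among other brain cells, astrocyte markers had a median of -0.12 (9 of 23 higher) with Gfap higher by 0.13, and oligodendrocyte markers a median of 0.18 (15 of 20 higher) with the myelin gene Mbp higher by 0.21. Without sham array 1 the astrocyte median was -0.28, and Gfap and Mbp differed by -0.13 and 0.06. Choroid plexus markers had a median of -0.29, which ranged from -1.38 to 0.43 over the alternatives, with Ttr lower by 1.54 (adjusted p = 0.604). The list median was 0.23 and Ttr differed by -0.93 without sham array 1. Without the arrays rich in these markers, sham array 3 and intact array 2, a single probe set passed, as higher.

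**Figure D4:**
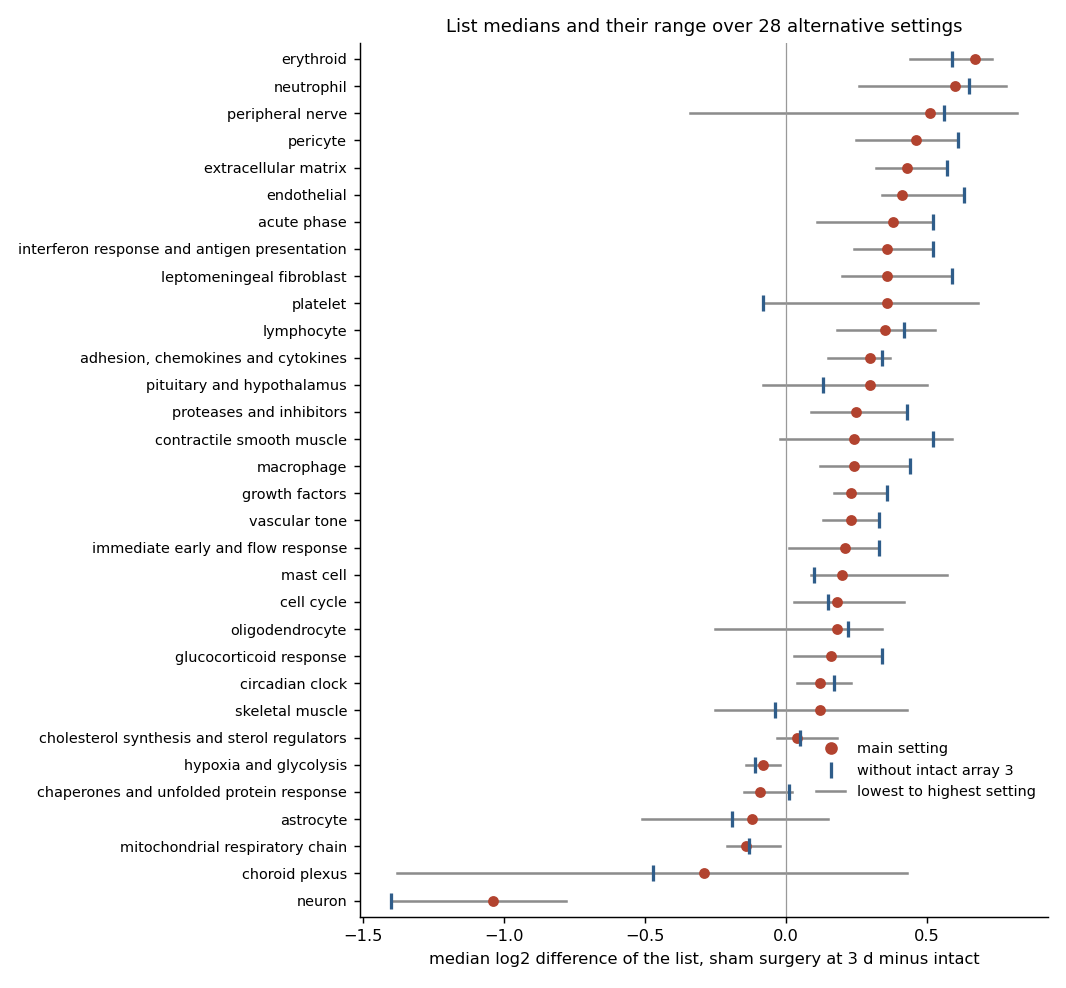
Median log2 difference of each of the 32 lists (x axis, sham surgery at 3 d minus intact), with a red point for the median as reported, a blue tick for the value without intact array 3 and a grey line for the range over 28 alternative settings. The neuron list runs from -1.40 to -0.78 and the matrix list from 0.32 to 0.57, whereas the lines of 10 lists cross 0: contractile, chaperones, cholesterol, platelet, choroid plexus, astrocyte, oligodendrocyte, pituitary, peripheral nerve and skeletal muscle.

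The second question was whether arteries at 3 days differed from those at 24 hours after the same operation, a comparison that needs no intact array. None of the 15737 probe sets passed in limma, or 0%, and the smallest adjusted p was 0.757. An unadjusted p under 0.05 was reached by 889 probe sets, or 5.65%, with 595 higher and 294 lower at 3 d. Of the genes, 651 (6.28%) were wholly above and 525 (5.07%) wholly below the arrays of 24 h. The comparisons of each time with intact arteries share the intact arrays, so their medians are only set side by side. For 3 d and for 24 h against intact, medians were 0.43 and 0.52 for matrix, 0.41 and 0.45 for endothelial, 0.67 and 0.86 for erythroid and -1.04 and -1.13 for neuronal genes. Against intact arteries at 24 h, 0 probe sets passed and 2364 had an unadjusted p under 0.05.

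Vdr, the vitamin D receptor, was among the genes that differed most between the times, with 2032, 1753 and 2074 at 3 d, against 561, 619 and 1049 at 24 h (log2 1.43, adjusted p = 0.757). The arrays of 3 d were close together and above all arrays of 24 h. Insig1, which restrains cholesterol synthesis, stood at 10650, 10110 and 8322 at 3 d, against 6730, 6196 and 5759 at 24 h (log2 0.63, adjusted p = 0.757). Medag, a gene of adipocyte differentiation, was higher by 0.65, the engulfment adaptor Gulp1 by 0.70. The palmitoyl transferase Zdhhc8 stood at 6225, 7878 and 5760 at 3 d, against 2406, 2937 and 4928 at 24 h. Calca, which encodes calcitonin and the vasodilator peptide CGRP of sensory nerves, stood at 487, 4975 and 479 at 3 d, against 122, 44 and 63 at 24 h (log2 3.63), with sham array 2 of 3 d far above the other sham arrays. The 24 h signals are dim, and without sham array 2 the difference was 2.52. A brighter Calca probe set differed by -0.21 between the times and a dimmer one by 1.94, so no direction is given for this gene. Its 3 d arrays overlapped the intact signals of 170, 601 and 223.

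Lower at 3 d than at 24 h were Mvk, the mevalonate kinase of cholesterol synthesis, at 2601, 2586 and 2068, against 3033, 4876 and 4427 (log2 -0.74), and Tcam1, at 618, 419 and 169, against 1019, 1170 and 1238 (log2 -1.64). Another Mvk probe set ran the other way, with a difference of 0.95. The nuclear export factors Pcid2 (-0.95) and Phax, the endosomal Zfyve27 (-0.77) and the splicing factor copy Zrsr2-ps1 (-1.84) completed this set. None of these 12 genes passed.

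The largest list medians between the times were upward. They were 0.82 for choroid plexus (-0.08 without sham array 3 of 3 d), 0.52 for peripheral nerve and 0.51 for astrocyte markers. The choroid plexus and peripheral nerve medians were 1.27 and 0.22 without sham array 1 of 3 d. Skeletal muscle markers were at 0.50 and oligodendrocyte markers at 0.48. Contractile smooth muscle genes (-0.23) and leptomeningeal fibroblast markers (-0.17) were lower at 3 d. Their medians were -0.06 and -0.28 without sham array 1 of 3 d, so the size of the contractile difference rested largely on that array. Macrophage markers also had lower signals at 3 d than at 24 h, with a median of -0.21. Of the 32 measured, 7 (21.9%) lay wholly below the arrays of 24 h and 0 wholly above, where 5.07% and 6.28% of all genes did. Cd68 stood at 4832, 3197 and 4529 at 3 d, against 6266, 5105 and 6465 at 24 h (log2 -0.52, adjusted p = 0.87). Cd14, the co-receptor for lipopolysaccharide, stood at 4230, 3522 and 2163, against 5809, 4795 and 5363 (log2 -0.73, SE 0.28, adjusted p = 0.867). C1qb, a complement chain made by macrophages, stood at 10970, 10470 and 10980, against 15810, 11760 and 13470 (log2 -0.33). The groups were apart for each gene, although Aif1, a calcium-binding macrophage protein, came within a narrow margin at 5328, 7317 and 4465, against 10260, 7332 and 7508.

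Interferon response and antigen presentation genes had a median of -0.18 between the times. Of these, 6 of 37 (16.2%) lay wholly below the arrays of 24 h, where 5.07% of all genes did. The class II antigen presentation genes, 8 in number, are not one of the 32 lists, so their counts only describe this subgroup. Of the 8, 6 were lower at 3 d than at 24 h, 4 of them without overlap, beside 5.07% of all genes. Against intact arteries 7 were higher at 3 d. RT1-Bb, a class II chain, stood at 16560, 16430 and 6880 at 3 d, against 23880, 19300 and 21810 at 24 h (log2 -0.81, adjusted p = 0.878). Against the intact signals of 3583, 7124 and 11080 the same gene was higher at 3 d by 0.91. RT1-Da stood at 26710, 28770 and 26690 at 3 d, against 44690, 29910 and 32250 at 24 h (log2 -0.36). Without sham array 1 of 3 d, 10 of the 32 macrophage markers (31.2%) and 9 of the 37 interferon genes (24.3%) lay wholly below, where 11.7% of all genes did. The median of the macrophage list lay between -0.30 and -0.08 over the alternatives.

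**Figure D5:**
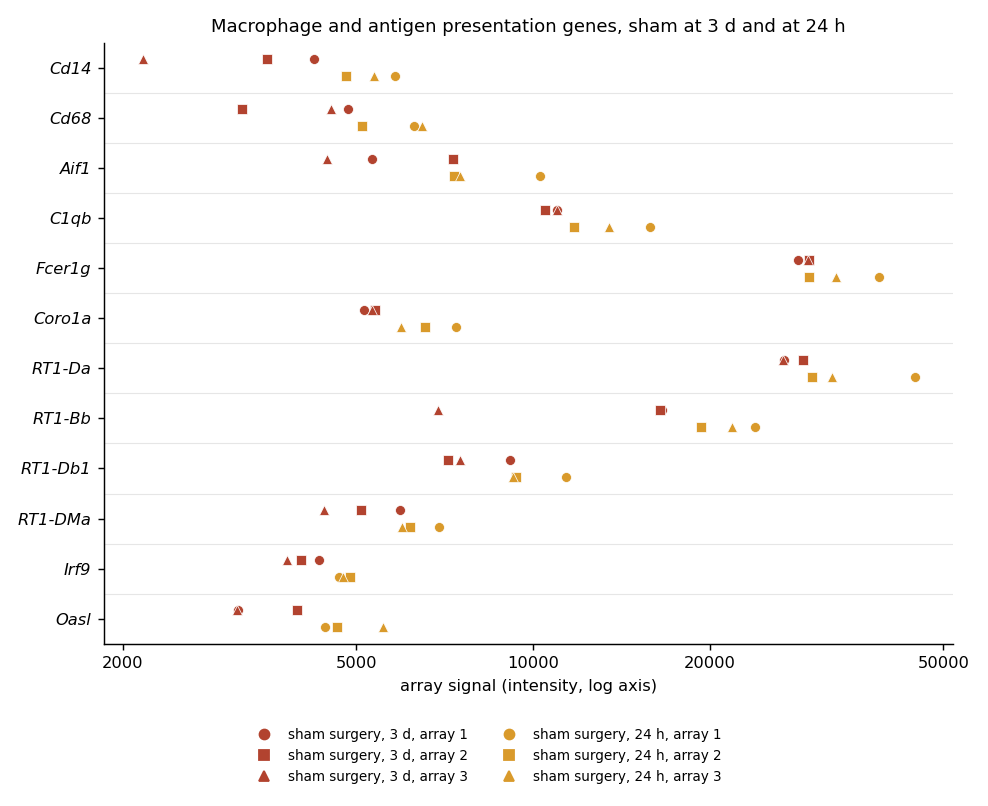
Signals of 12 macrophage and antigen presentation genes on the sham arrays of 3 d (red) and of 24 h (yellow), with a symbol for each array (log axis, array signal). All arrays of 3 d lie below all arrays of 24 h for each gene, by a narrow margin for Aif1 and Fcer1g, and the genes shown are those of both lists chosen for having no overlap.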

How the data were processed

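RNA of the posterior cerebral artery was measured on Affymetrix Rat230A arrays. Each deposited value is an intensity on a linear scale, computed by the authors with GCOS, per the submitters' processing notes, and globally scaled. Its software version was not stated. The stated target is 500, but every array had a mean of 5000 once 2% of values were trimmed from each end. Between 1.33% and 5.19% of values on the arrays used here lay below 100. Precision is limited by having 3 arrays per group.

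Signals were taken as log2(signal + 16), without further normalization. Probe sets at 100 or more on at least 3 of the 15 arrays were tested with limma 3.58.1 in R 4.3.3, with 5 group means, 10 residual degrees of freedom, a variance trend that added 4.83 prior degrees of freedom, 2-sided tests and Benjamini-Hochberg adjustment at 0.05. Lists and counts over genes took the brightest probe set of each gene, whereas the named genes without overlap took the probe set with the smallest p. The platform table names a single gene for 12783 probe sets, several for 312 and none for 2771. Coordinates are left out because no genome build is named. Tests were checked on simulated data.

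The comparison was sham surgery at 3 d minus intact, with sham surgery at 24 h beside it. Named genes were the 12 higher and 12 lower genes without overlap, with the smallest p and a mean of at least 1000 in the higher group, up to 6 each against 24 h, up to 4 of each of the 32 lists with the smallest p, and 28 genes given whatever their values. Other list members were named after their values were seen, mostly because their arrays did not overlap. Members and lists were chosen with earlier results of these data known. Alternatives covered the pseudocount, the filter, quantile normalization, median centring, the variance trend, array weights, a covariate for the array number, a single probe set per gene, the compared groups alone and leaving out each array. No label pairs the arrays of different groups.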

Additional observations from a re-analysis of the deposited data

How the results depend on the processing

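For sham surgery at 3 d against intact, leaving out a single array gave between 0 and 184 probe sets past the threshold, with 184 without intact array 3, 1 (higher) without array 2 of the vessel occlusion at 24 h, and 0 otherwise. Without both arrays rich in choroid plexus markers, a setting chosen after seeing the data, 1 passed. Over all 28 alternatives the probe sets with an unadjusted p under 0.05 numbered 1429 to 2957. For 3 d against 24 h the single-array range was 0 to 1 (1 lower without sham array 2 of 3 d), and for 24 h against intact 0 to 818, with 818 without intact array 3 and 3 without array 3 of the occlusion at 3 d. The last comparison had 2 with its own groups alone and 1 without the choroid-rich arrays. No value was past the threshold in the main setting, so none could reverse. Some values short of it changed sign, as did C3 in 7, Egr1 in 4 and Cd68 in 3 of the 28 alternatives. Of the results of single genes, 29 came past the threshold under an alternative, 28 of them without intact array 3. The causes were not tested. Median centring moved the median of all probe sets from 0.08 to 0.02, and the cholesterol list from 0.04 to -0.03. Intact array 3 thus decides the count of calls, 3 arrays per group limit every interval, and dim signals such as Clca1 in intact arteries fix fold sizes loosely. No paired analysis was possible because the replicate numbers were given in accession order and pair no arrays.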

Other observations

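Mast cell markers were higher after sham surgery at 3 d in 8 of 11 cases (median log2 0.20), with 3 (27.3%) wholly above the intact arrays, beside 8.65% of all genes. Without sham array 1 the median was 0.57 and 6 (54.5%) lay wholly above, beside 14.9% of all genes. Tpsab1, a tryptase of mast cell granules, stood at 694, 275 and 333 on the sham arrays, against 171, 88 and 200 on the intact arrays (log2 1.37). Hdc, the enzyme that makes histamine, stood at 17390 on sham array 1 and at 1054 and 1142 on the other sham arrays, against 940, 901 and 243 on the intact arrays. Peripheral nerve and skeletal muscle markers also varied within the groups. The sodium channel Scn7a of glial cells was higher by 1.08, and Chga, a protein of secretory granules, stood at 78, 325 and 134 on the sham arrays, against 3822, 2142 and 1039 on the intact arrays. The fast myosin Myh1 stood at 112700, 61600 and 68660 after sham surgery, against 35970, 20470 and 52240 in intact arteries, while the skeletal muscle list had a median of 0.12, or 0.22 without sham array 1 and -0.25 without intact array 1.

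Genes of cholesterol synthesis were higher in 15 of 28 cases against intact (median 0.04, and 0.00 without sham array 1) and had a median of 0.10 against 24 h. Fdps, an enzyme of the mevalonate pathway, stood at 14510, 11860 and 11610 after sham surgery at 3 d, against 9026, 7820 and 11250 in intact arteries (log2 0.44, limma adjusted p = 0.268).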
